A study of Rattus norvegicus with 8 samples.

Results

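Cxcl1, Cxcl2, Cxcl3, Cxcl6, Cxcr1, Cxcr2, Csf3, Csf3r, Cxcl12 and Cxcr4 encode CXC chemokines, their receptors and the granulocyte growth factor with its receptor. The 10 genes were chosen by symbol, and each was represented by 1 row of the array's annotation with a single gene symbol, among 22093 named genes. Whole-lung RNA of newborn rats was measured as 8 samples on 1-colour Affymetrix arrays, 1 array per sample. Whether a sample held the lung of 1 pup or of several is not given in the sources used here, and "lung" below stands for such a sample. By the sample titles, 4 samples came from pups of vitamin D deficient mothers, which are read here as dams fed no added vitamin D (0 IU per kg of diet). The other 4 are titled control and came from pups of mothers with adequate vitamin D, read as dams fed 1000 IU per kg. All dams were kept at Denver altitude in housing without ultraviolet light on diets with 0.5% calcium and 0.4% phosphorus. Deficient dams were mated with vitamin D-replete males once serum 25-hydroxyvitamin D was below 10 ng/ml. Pups were born spontaneously at term and their age is given as day 0 in the labels, while the growth protocol places harvest on day of life 1. The sources used here name no strain, no pup sex and no litters, so each p-value reflects the spread between these samples only, some of which may share a litter.

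The direction of every difference below is by sample title, and the deposited sources disagree on it. All 8 columns of log2 values in the authors' deposited table of called genes equal, to within 5e-05, the values of an array that the titles place in the other group under that number. Neither naming could be shown to be the right one from these files, so the groups are called titled deficient and titled adequate. If the authors' table names the arrays correctly, each direction given here turns round.

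Chemokines are small secreted proteins that guide leukocytes along concentration gradients. Cxcl1, Cxcl2, Cxcl3 and Cxcl6 belong to the neutrophil-attracting class with a glutamate-leucine-arginine (ELR) motif before the CXC cysteines, and they act on neutrophils through Cxcr2 and, for some ligands, Cxcr1. Csf3 is granulocyte colony-stimulating factor (G-CSF), which drives the production and release of neutrophils through Csf3r. Cxcl12 and its receptor Cxcr4 form a separate pair that holds neutrophils in the bone marrow and also serves vessel and stromal development in lung.

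Of the ELR ligands and their receptor, Cxcl1, Cxcl2, Cxcl3 and Cxcr2 were lower in titled deficient lungs, as was Csf3r, and their groups did not overlap. Cxcl1 was 10.5-fold lower and Cxcl3 1.72-fold lower. Cxcl6, Cxcl12 and Cxcr4 did not pass the test, and Csf3 and Cxcr1 lay below the level needed for testing. Thus 5 of the 10 genes were called lower and 0 higher, against 13.7% called lower and 8.24% called higher among the 15465 genes tested. Titled deficient lay wholly below titled adequate for the same 5 genes, against 16.7% of the genes tested. A call is an adjusted p under 0.05 from limma, fitted across all genes tested with Benjamini-Hochberg adjustment. Among all calls, 62.4% were lower in titled deficient. That share was 80.2% with each array centred on the median of all its rows and 32.9% with centring on the genes tested. It was 71.3% after quantile normalization, 75.8% after cyclic loess and 46.4% after quantile normalization of the genes tested alone. The 5 called genes were lower under each of these scalings. The median log2 difference was -0.98 over all 10 genes and -0.018 over all genes tested. Cxcl2, Cxcl6 and Cxcr2 had titled deficient means below the level filter (log2 5.32) and entered the test through the titled adequate lungs, so the number that passed carries no weight of its own.

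The ELR ligand genes lie together on rat chromosome 14. In RefSeq's order (assembly GRCr8) Cxcl2 and Cxcl1 are neighbours, followed by Cxcl3, by the platelet chemokine genes Pf4 and Ppbp and by Cxcl6, with noncoding and unnamed loci between some of them. Cxcr2 and Cxcr1 are neighbours on chromosome 9. Promoter windows of RefSeq, 250 bases before to 50 after each start, were available for 8 of the 10 genes. Cxcl3 and Csf3 had no window and were not searched. The consensus of NF-kappaB, a transcription factor family activated by inflammatory signals, was searched on both strands. It was found in the windows of 3 genes, Cxcl1, Cxcl2 and Cxcl6, against 4.18% of all 33469 windows. The 150 bases before each start are shown because they place the match in the same stretch of all 3 promoters, with capitals marking the bases of overlapping matches, 5′ to 3′ on the gene's strand. The stretches are chr14:17479322-17479471 for Cxcl1, chr14:17467256-17467405 for Cxcl2 and chr14:17596418-17596567 for Cxcl6, all on the minus strand of GRCr8.
Cxcl1: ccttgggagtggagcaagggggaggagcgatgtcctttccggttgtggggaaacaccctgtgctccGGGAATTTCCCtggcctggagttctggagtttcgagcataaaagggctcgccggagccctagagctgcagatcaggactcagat
Cxcl2: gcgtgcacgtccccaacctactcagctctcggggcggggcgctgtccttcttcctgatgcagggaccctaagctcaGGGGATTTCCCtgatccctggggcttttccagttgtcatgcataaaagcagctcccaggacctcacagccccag
Cxcl6: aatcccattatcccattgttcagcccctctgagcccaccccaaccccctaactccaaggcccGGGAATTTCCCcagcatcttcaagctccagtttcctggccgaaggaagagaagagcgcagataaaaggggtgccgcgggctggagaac
The first matched base lay 84, 74 and 88 bases before the start in Cxcl1, Cxcl2 and Cxcl6. Cxcl1 and Cxcl6 carry the same matched letters, and each holds a match on both strands. Cxcl2 holds 2 overlapping matches on the gene's strand, and the letters of the match nearer the start also fit the consensus on the opposite strand. TGANTCA (a site of AP-1) and TTGCGCAA (a site of C/EBP) were in none of the 8 windows, against 7.33% and 0.17% of all windows. The hypoxia-response letters ACGTG were in Cxcl2 and Csf3r, against 19.3% of all windows, and GCGTG in Cxcl2, Cxcl12 and Cxcr4, against 29.7%. A match is a stretch of letters and not a measured binding site.

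Cxcl1, the rat chemokine first described as CINC-1, had log2 signals of 6.92, 7.0, 6.97 and 7.23 on titled deficient 1 to 4. On titled adequate 1 to 4 they were 9.23, 9.36, 11.87 and 11.21. Every titled adequate lung lay above every titled deficient lung, and titled adequate 3 and 4 stood well above 1 and 2. Cxcl1 was 10.5-fold lower in titled deficient (log2 difference -3.39, SE 0.53, adjusted p = 0.0031 by limma). The titled deficient values spanned 0.31 and the titled adequate values 2.64 on the log2 scale.

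Cxcl2, the chemokine also called macrophage inflammatory protein 2, read 4.97, 4.88, 5.21 and 4.98 on titled deficient 1 to 4. It read 5.94, 6.44, 10.17 and 8.62 on titled adequate 1 to 4. The titled deficient signals all lay under the level filter, and the same pair of titled adequate lungs was highest. Cxcl2 was at least 5.55-fold lower in titled deficient, with signals under the filter set to it (log2 difference as measured -2.78, SE 0.77, adjusted p = 0.0309 by limma). The SD was 0.14 in titled deficient and 1.97 in titled adequate, while the fit assumes a common variance, so the SE and p are approximate. The call was lost without any 1 of titled deficient 1, 2, 3 or 4 or titled adequate 4, at adjusted p of 0.0609 to 0.0739 by limma, and the difference was -1.99 without titled adequate 3.

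Cxcl3, known as CINC-2 in the rat, gave high signals on every array, far above those of the other ELR ligands. Whether this row measures Cxcl3 alone was not tested. The signals were 16.14, 15.97, 15.80 and 16.16 on titled deficient 1 to 4 and 16.38, 16.63, 17.08 and 17.10 on titled adequate 1 to 4. The groups did not overlap, but the gap between the highest titled deficient and lowest titled adequate lung was small beside the titled adequate range of 0.71. Cxcl3 was 1.72-fold lower in titled deficient (log2 difference -0.78, SE 0.17, adjusted p = 0.0121 by limma). Its difference was -1.06 after quantile normalization and -0.67 with arrays centred on the genes tested, and it passed in both.

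Cxcl6, which RefSeq also lists as Cxcl5, showed the widest spread of the 10 genes. Titled deficient 1 to 4 read 4.51, 4.33, 4.22 and 4.30, and titled adequate 1 to 4 read 4.45, 4.42, 9.95 and 7.36. Titled adequate 1 and 2 lay within the range of the titled deficient lungs, so the signal stood out on titled adequate 3 and 4 alone. Cxcl6 did not pass (log2 difference -2.21, 95% interval -4.54 to 0.12, adjusted p = 0.151 by limma). The mean of the 4 ELR ligands' log2 signals was 8.14, 8.04, 8.05 and 8.16 on titled deficient 1 to 4 and 9.0, 9.21, 12.27 and 11.07 on titled adequate 1 to 4.

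**Figure D1:**
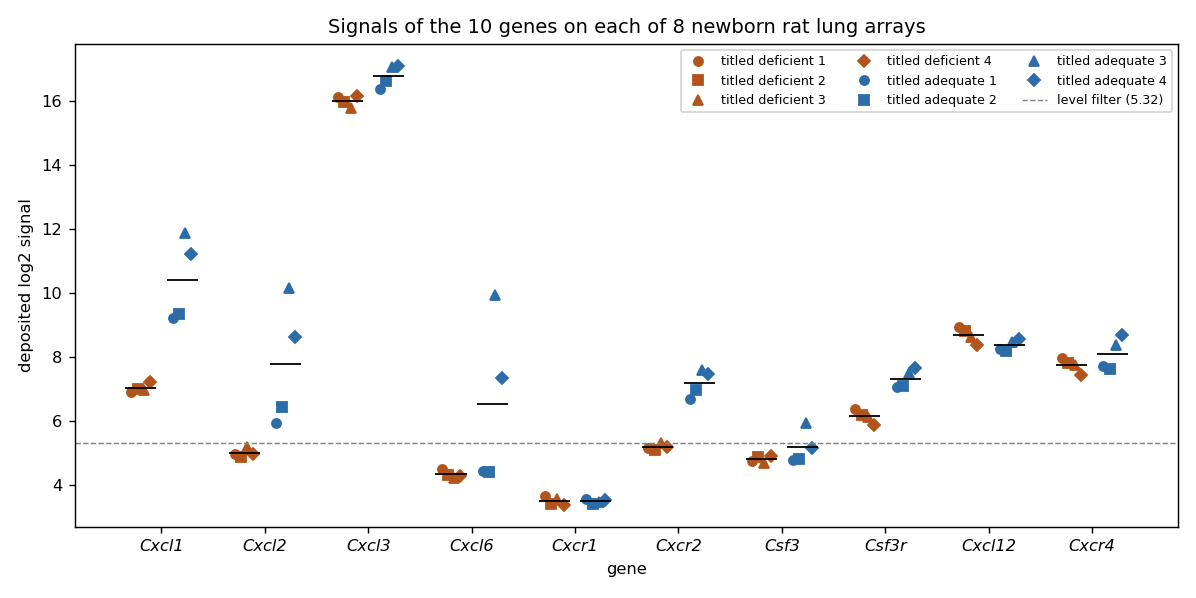
Deposited log2 signal of each gene on each array, titled deficient lungs left of titled adequate lungs, with marker shapes for array numbers, short black lines for group means and a dashed line for the level filter. Cxcl1 lies between 6.92 and 7.23 in titled deficient and between 9.23 and 11.87 in titled adequate lungs, and Cxcl6 is raised only on titled adequate 3 and 4.

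Cxcr2, the receptor shared by the ELR ligands, was lower in titled deficient lungs. Its log2 signals were 5.15, 5.11, 5.33 and 5.19 on titled deficient 1 to 4 and 6.69, 6.97, 7.59 and 7.48 on titled adequate 1 to 4. All titled adequate lungs lay well clear of the titled deficient ones. Cxcr2 was at least 3.63-fold lower in titled deficient, bounded in the same way as Cxcl2 (log2 difference as measured -1.99, SE 0.18, adjusted p = 0.000199 by limma). Cxcr1, the neighbouring receptor gene, read 3.66, 3.43, 3.56 and 3.39 on titled deficient 1 to 4 and 3.57, 3.41, 3.47 and 3.54 on titled adequate 1 to 4. These overlapping values lay at the level of the array's antigenomic background rows, whose medians were 3.37 to 3.54 per array, so no difference in Cxcr1 could be detected with this row.

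Of the G-CSF pair, the receptor gene passed the test and the ligand gene did not. Csf3r, the G-CSF receptor gene of neutrophils and their precursors, read 6.39, 6.21, 6.12 and 5.88 on titled deficient 1 to 4 and 7.07, 7.10, 7.5 and 7.67 on titled adequate 1 to 4. The groups did not overlap, and Csf3r was 2.27-fold lower in titled deficient (log2 difference -1.18, SE 0.16, adjusted p = 0.00139 by limma). Csf3 itself read 4.75, 4.90, 4.71 and 4.91 on titled deficient 1 to 4 and 4.78, 4.82, 5.95 and 5.18 on titled adequate 1 to 4. The highest Csf3 signals were again those of titled adequate 3 and 4, and the other 6 lungs overlapped. Csf3 was below the level filter and without that filter did not pass (log2 difference -0.36, 95% interval -0.86 to 0.13, adjusted p = 0.277 by limma).

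Neither gene of the Cxcl12 and Cxcr4 pair passed the test with all arrays. Cxcl12, the stromal ligand, read 8.96, 8.81, 8.63 and 8.39 on titled deficient 1 to 4 and 8.27, 8.20, 8.49 and 8.56 on titled adequate 1 to 4. The groups overlapped, with 3 titled deficient lungs above every titled adequate lung, and the difference of 0.32 (95% interval 0.01 to 0.62) did not pass (adjusted p = 0.122 by limma). It passed, as higher in titled deficient, with arrays centred on the genes tested (0.42, adjusted p = 0.0263 by limma), with array weights (0.41, adjusted p = 0.0263 by limma) and without titled deficient 4 (0.42, adjusted p = 0.0418 by limma). Cxcr4, its receptor, read 7.99, 7.83, 7.75 and 7.44 on titled deficient 1 to 4 and 7.74, 7.64, 8.37 and 8.68 on titled adequate 1 to 4. Here too titled adequate 3 and 4 were the highest, while titled adequate 1 and 2 lay among the titled deficient lungs. Cxcr4 did not pass (log2 difference -0.35, 95% interval -0.86 to 0.15, adjusted p = 0.279 by limma).

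In Y-linked genes the titled adequate lungs stood apart both from the titled deficient lungs and from one another. Signals of 4 rows of Kdm5d, Eif2s3y, Uty and Ddx3y on the Y chromosome ranged from 4.63 to 5.99 on the titled deficient arrays. They ranged from 10.56 to 13.45 on titled adequate 1 and 2 and from 5.58 to 8.71 on titled adequate 3 and 4, where each of the 4 rows exceeded its highest titled deficient value. The fit was therefore also made without each pair. Without titled adequate 3 and 4, Cxcl1 (log2 difference -2.27, adjusted p = 3.43e-05), Cxcl2 (-1.18, 0.00245), Cxcr2 (-1.64, 0.000116) and Csf3r (-0.93, 0.00428) passed by limma. Cxcl3 (-0.49, adjusted p = 0.0502) and Cxcl6 (-0.10, adjusted p = 0.457) did not pass by limma there, and the Cxcr4 difference turned to 0.06 (adjusted p = 0.789). Without titled adequate 1 and 2, which leaves titled adequate 3 and 4, 7 genes passed as lower in titled deficient. Among them were Cxcl6 (-4.32, adjusted p = 0.00344 by limma) and Cxcr4 (-0.77, adjusted p = 0.018 by limma). Titled adequate 3 and 4 held the highest signals of both genes, so their passing here follows from which arrays were kept. Either split also narrows the titled adequate spread of the ELR ligands. The SE of Cxcl1 was 0.11 without titled adequate 3 and 4 and 0.53 with all arrays. Smaller adjusted p-values in these fits are therefore no stronger support. In each of the 4 rows every titled adequate array exceeded every titled deficient array. Y-linked signal and group thus cannot be told apart here, and the part of pup sex in these differences was not tested.

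**Figure D2:**
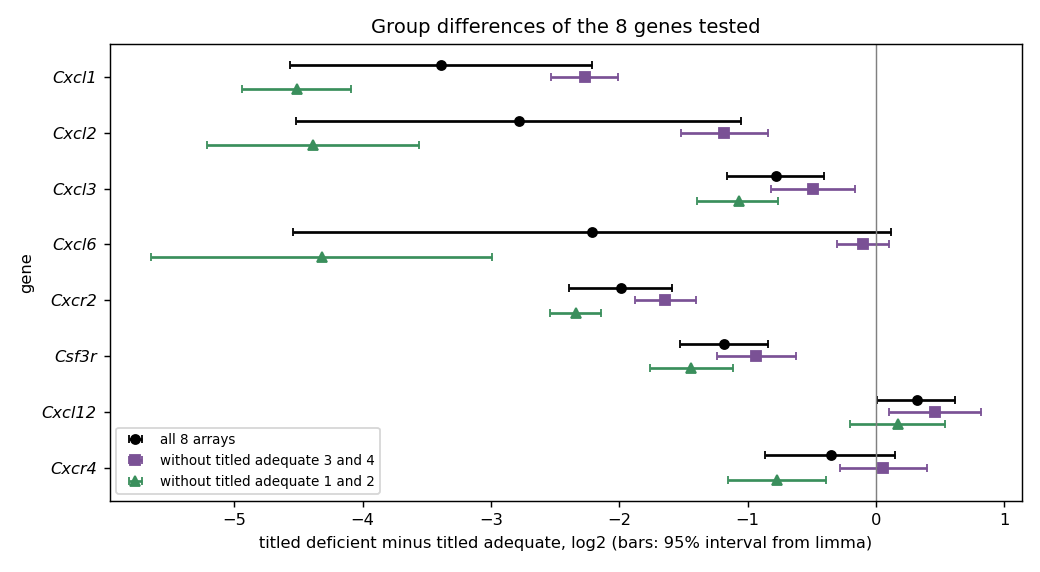
Log2 difference, titled deficient minus titled adequate, for the 8 genes tested, with 95% intervals from limma, for all 8 arrays and without either pair of titled adequate arrays. Cxcl1 stays below 0 in all 3 fits (-3.39, -2.27 and -4.51), while Cxcl6 is near 0 without titled adequate 3 and 4 (-0.10).

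Neutrophil markers moved with the receptor and ligand genes. Of 20 tested markers 18 were lower in titled deficient, with a median log2 difference of -1.23, and the groups did not overlap for 18. Among all genes tested 13.7% were lower, and titled deficient lay wholly below titled adequate for 16.7%. Mmp9, Mpo and Padi4, all counted as lower, had titled deficient means below the level filter. They entered the test through the titled adequate lungs, so their part in these counts carries no weight of its own. Cd177, whose product sits on the neutrophil surface, was 44.1-fold lower and S100a9, a calprotectin subunit, 22.5-fold lower, while the granule gene Ngp read 8.29 ± 0.38 in titled deficient and 8.30 ± 0.30 in titled adequate (SD, n = 4 each). The summed linear signal of the 20 markers was 3750 to 5380 on titled deficient arrays and 23200 to 48200 on titled adequate arrays. Whether these genes mark neutrophils alone in this tissue was not tested, and 8 of 13 macrophage and monocyte markers were also lower. No marker was listed at 0, but Ltf, Prtn3, Ctsg, Retnlg and Fpr1 lay below the level filter. In whole lung, fewer cells of a type and less RNA per cell cannot be told apart. The part of neutrophil content in the Cxcr2 and Csf3r differences was not tested.

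Over the 8 arrays the mean log2 signal of the neutrophil markers was 7.10, 6.89, 6.92 and 6.68 on titled deficient 1 to 4 and 8.67, 8.49, 9.07 and 8.94 on titled adequate 1 to 4. Single markers differed in how far they varied among the titled adequate lungs. Cd177 read 12.09, 12.5, 14.33 and 14.11 on titled adequate 1 to 4, with 3 and 4 highest as for Cxcl1, and S100a9 read 13.04, 12.83, 12.7 and 12.36. Among the same lungs Cxcl1 spanned 2.64, Cxcl2 4.23 and Cxcl6 5.53 on the log2 scale, while Cxcl3 spanned 0.71, Cxcr2 0.90 and Csf3r 0.61. Without titled adequate 3 and 4, and likewise without 1 and 2, 17 of the 20 markers were lower in titled deficient.

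**Figure D3:**
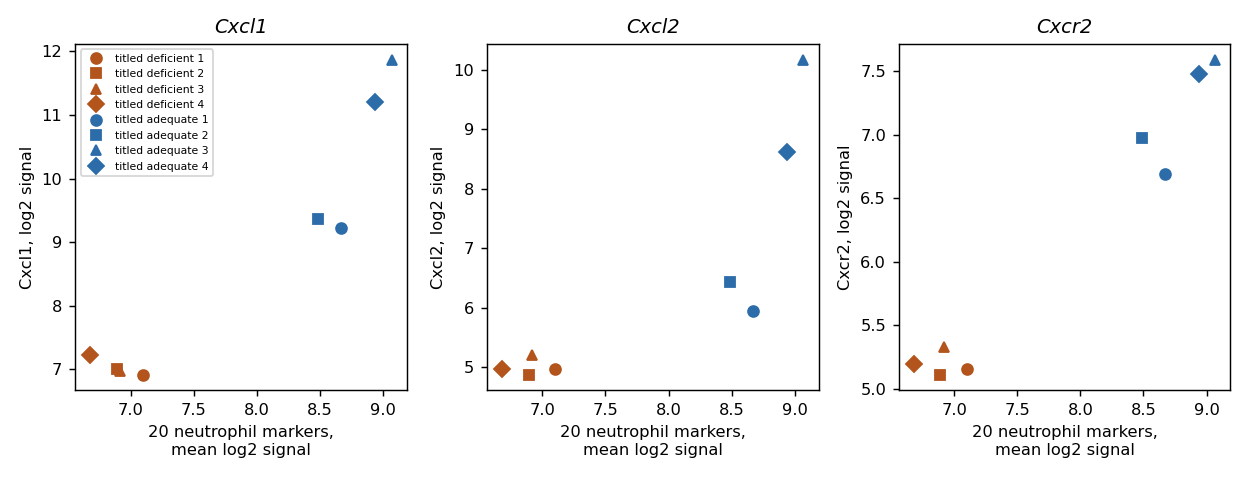
Log2 signal of Cxcl1, Cxcl2 and Cxcr2 on each array against the mean log2 signal of 20 neutrophil markers, with the marker shape giving the array number. Titled deficient arrays lie between 6.68 and 7.10 on the marker axis and titled adequate arrays between 8.49 and 9.07, with no overlap between the groups on that axis.

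Genes whose pattern within the groups lay nearest to each ligand were found from log2 signals with each group's mean removed, as the root mean square distance over 8 arrays. For Cxcl1 these were Il1b, which encodes interleukin 1 beta (distance 0.162), Pigr, the polymeric immunoglobulin receptor gene (0.264), and Vnn3, a vanin gene (0.267). For Cxcl2 they were the immediate early gene Egr1 (0.31), Pigr (0.398) and Cxcl1 (0.436). For Cxcl6 they were Cxcl2 (0.483), the immediate early gene Fos (0.544) and the chemokine gene Ccl3 (0.583). The spread of these ligands within the groups, on the same measure, was 0.817 for Cxcl1, 1.21 for Cxcl2 and 1.63 for Cxcl6. Cxcl3, Cxcr2, Csf3r, Cxcl12 and Cxcr4 varied less within groups, by 0.184 to 0.336, and their nearest genes, such as Rgcc and Kcnmb1 for Cxcr2, lay within 0.0878.

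The list of genes tied to induction of CXC chemokines and Csf3 had 11 of 17 tested members lower and 1 higher in titled deficient. Its median log2 difference was -0.46, and among all genes tested 13.7% were lower and 8.24% higher. The list also holds genes that dampen such induction, such as Nfkbia, Tnfaip3 and Zfp36, which are among those lower. Its count is therefore not a count of inducers alone. Il1b read 5.66, 5.61, 5.68 and 5.53 on titled deficient 1 to 4 and 7.72, 7.49, 10.01 and 9.37 on titled adequate 1 to 4. Its order among the titled adequate lungs put 3 and 4 highest, as for Cxcl1. Il1b was 8.15-fold lower (log2 difference -3.03, SE 0.49, adjusted p = 0.00356 by limma) and Il1a, the related interleukin gene, 4.32-fold lower. Nfkbiz, an NF-kappaB cofactor gene, was 3.23-fold lower, the subunit gene Rel 1.85-fold lower and Zfp36, whose product destabilises cytokine mRNA, 2.91-fold lower. Tlr4, the lipopolysaccharide receptor gene, was 1.36-fold higher, and Il6, Tnf and Lif lay below the level filter.

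Of 13 tested genes of granulopoiesis and colony-stimulating factors, 6 were lower in titled deficient and 0 higher, with a median of -0.49. The shares over all genes tested were 13.7% lower and 8.24% higher. Csf2rb, the shared beta chain of the GM-CSF, IL-3 and IL-5 receptors, was 2.54-fold lower and its partner Csf2ra 1.44-fold lower. Csf2, which encodes GM-CSF, was at least 1.77-fold lower, and it too entered the test through the titled adequate lungs. The C/EBP transcription factor genes Cebpd and Cebpb, which act in granulocyte and inflammatory gene programmes, were 3.09-fold and 1.48-fold lower. Without titled adequate 3 and 4, 4 of these 13 genes were lower and the median was -0.24.

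Signalling genes downstream of chemokine and G-CSF receptors were lower for 10 of 22 tested and higher for 0, with a median of -0.29. Over all genes tested 13.7% were lower and 8.24% higher. Without titled adequate 3 and 4, 7 were lower and the median was -0.19. Rgs2, a regulator of G protein signalling, was 4.56-fold lower, the leukocyte GTPase gene Rac2 2.94-fold and the kinase gene Fgr 2.38-fold lower. Socs3, the feedback inhibitor induced by G-CSF receptor signalling, was 2.19-fold lower and Stat5b 1.40-fold lower. Stat3, the main transducer of G-CSF signals, read 13.48 ± 0.02 in titled deficient and 13.49 ± 0.17 in titled adequate (SD, n = 4 each) and did not pass (adjusted p = 0.972 by limma).

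Other CXC and CX3C chemokines and receptors had 3 of 10 tested genes lower in titled deficient and 0 higher, with a median of 0.09. All genes tested gave 13.7% lower and 8.24% higher. Cxcl17, a mucosal chemokine, was 2.12-fold lower. Cx3cl1, a membrane-bound chemokine of epithelium and endothelium, was 2.43-fold lower and its receptor gene Cx3cr1, which marks monocytes and macrophages, 2.65-fold lower. Pf4 and Ppbp, the platelet chemokine genes that lie between Cxcl3 and Cxcl6, did not pass (log2 differences 1.20 and 0.40, adjusted p = 0.104 and 0.108 by limma). Pf4 read 10.86, 9.94, 8.92 and 8.11 on titled deficient 1 to 4 and 8.51, 8.12, 7.94 and 8.46 on titled adequate 1 to 4. Cxcl13, which attracts B cells (0.85, adjusted p = 0.0632), Cxcl16, a scavenger receptor and T cell chemokine (-0.40, adjusted p = 0.0767), and the decoy receptor gene Ackr3, which binds Cxcl12 (0.17, adjusted p = 0.333), did not pass by limma either. The interferon-induced Cxcl9 and Cxcl11 and the receptors Cxcr3, Cxcr5, Cxcr6 and Ackr1 lay below the level filter.

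Markers of other cells that could hold these transcripts were counted in the same fit, where 13.7% of all genes tested were lower and 8.24% higher. Macrophage and monocyte markers were lower for 8 of 13 and higher for 1 (median -0.92), with C1qb 2.66-fold and Cd163 1.95-fold lower. Marco was 1.19-fold higher, and Cd68, Mrc1, Ccr2 and Lyz2 did not pass. Csf1r and Cx3cr1, both lower, are also counted in lists above. Without titled adequate 3 and 4 the macrophage median was -0.52, with 7 genes lower. Of 10 endothelial markers 1 was higher and 0 lower (median -0.10), the adherens junction gene Cdh5 at 1.45-fold. Of 10 mesenchymal markers 2 were lower and 0 higher (median -0.05), Tcf21 at 1.72-fold and Pdgfra at 1.57-fold. For lists of 10 genes, these endothelial and mesenchymal counts are close to the shares over all genes tested. Lung epithelial markers, which place the tissue as lung, were lower for 6 of 13 and higher for 0 (median -0.38), with Nkx2-1 1.80-fold and Sftpb 1.30-fold lower. The epithelial median was -0.61 after quantile normalization and -0.69 after cyclic loess, with 7 genes lower in both. Red cell markers had 0 of 7 called in either direction (median -0.23), and at an unadjusted p under 0.05 limma's count was also 0. Among 5 lymphocyte markers 2 were lower and 1 higher (median 0.06). Hypoxia-induced genes, listed because hypoxia is known to raise Cxcl12 and Cxcr4, were lower for 6 of 13 and higher for 0 (median -0.27), with Egln3 10.1-fold and Ndrg1 4.64-fold lower.

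**Figure D4:**
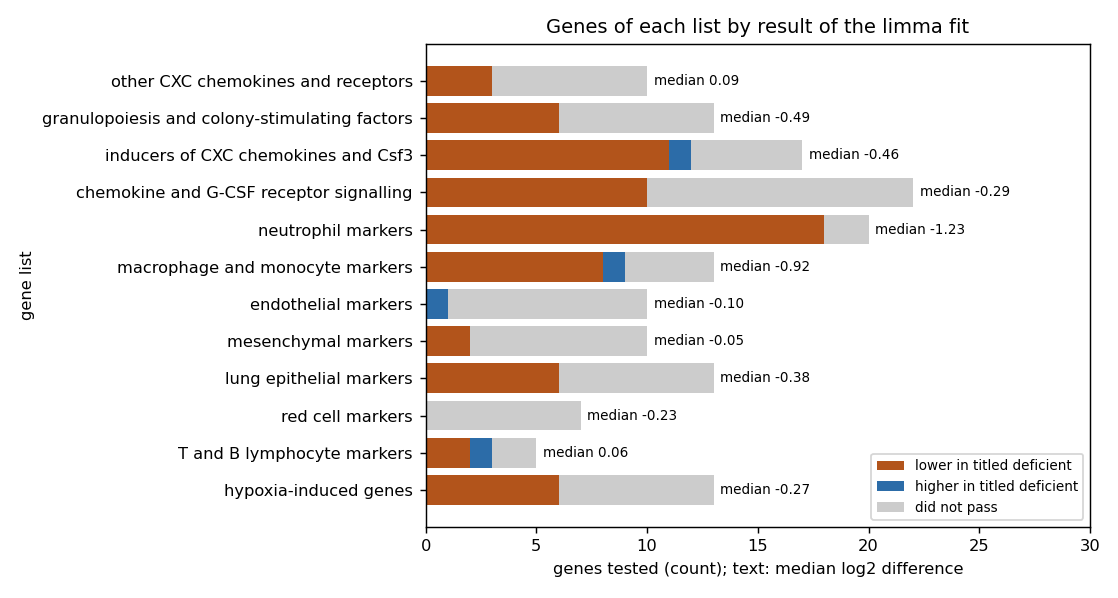
Number of tested genes in each list that were lower in titled deficient, higher in titled deficient or did not pass limma at an adjusted p of 0.05, with the median log2 difference of each list beside its bar. The neutrophil list has 18 of 20 genes lower and the red cell list 0 of 7, against 13.7% of all genes tested.

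The authors' deposited table lists 6 of the 10 genes among its 2312 transcripts, with folds of linear group means named there as deficient over control. The fold in the authors' deposited table is 14.77 for Cxcl6, 14.08 for Cxcl1, 13.10 for Cxcl2, 4.09 for Cxcr2, 2.29 for Csf3r and 1.75 for Cxcl3. These run opposite to the titles for all 6 genes. Cxcl6, which did not pass here, is listed in the authors' deposited table with the largest fold of the 6, and its linear mean is set mostly by the pair of arrays at 9.95 and 7.36.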

How the data were processed

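RNA from whole lung was hybridised to 1-colour Affymetrix arrays. The authors deposited log2 values per transcript cluster, and per the submitters' processing notes these came from RMA in Affymetrix Expression Console. The table of called genes that the authors deposited gives a signed fold score of linear group means. Of 70580 rows, 1738 were control rows and 23446 carried 1 gene symbol, 505 several and 44891 none. Symbols of 22077 rows were updated to current RefSeq names, and each of 22093 genes was represented by its row with the highest mean. Genes whose mean over all arrays lay above the 30th percentile (log2 5.32) were tested, which left 15465. The values were used as deposited, with array medians from 5.499 to 5.647.

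The titled groups were compared with limma 3.58.1 in R 4.3.3 (moderated test with a variance trend, Benjamini-Hochberg adjustment over all genes tested), an approach also tested on simulated data. The simulated noise was independent between arrays and equal in both groups, unlike the spread of the ELR ligands, so it does not bear on their calls. A fold whose lower group mean lay under the filter is a bound, with signals under 5.32 set to 5.32. The precision is limited by 4 arrays per group. The fit assumes a common variance of both groups for each gene. The ELR ligands varied more among titled adequate lungs, so their SEs, intervals and p-values are approximate. The 10 genes and the lists were chosen with earlier results of these data known. Named genes were the 10 genes, the 5 of each list with the smallest p, the 3 with the nearest pattern, and genes in which 1 array stood well apart within its group. Pf4, Ppbp, Ackr3, Tlr4, Ngp, Stat3, Nfkbia and Tnfaip3 were named after their values were seen. So were Mmp9, Mpo, Padi4, Marco, Cd68, Mrc1, Ccr2, Lyz2 and Csf1r. Alternatives were other scalings, filters, rows, array weights, no variance trend, a replicate block, an exact permutation test, and fits without 1 array or a pair of arrays. The array's genome build is not given in the sources used here.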

Additional observations from a re-analysis of the deposited data

Results flagged for a closer look

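In 138 groups of 4 arrays, over 69 genes named or described, 4 held a single array far from the others. Chance gives about 1 in 20 groups. The measure is the gap to the nearest array divided by the range of the group. For Nfkbiz, titled adequate 3 read 9.72 and the other titled adequate arrays 9.14 to 9.19 (0.903 of the range). For C1qc, a complement gene of macrophages, titled deficient 4 read 6.05 and the other titled deficient arrays 6.40 to 6.46 (0.853). For Sftpb, the surfactant protein B gene, titled deficient 2 read 18.67 and the others 18.63 to 18.64 (0.882). For Adm, the adrenomedullin gene, titled adequate 2 read 8.68 and the others 7.72 to 7.83 (0.884). None of the 10 chemokine and receptor genes met this measure.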

How the results depend on the processing

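Centring on the genes tested and quantile normalization of those genes were chosen after seeing the data. Of all genes, 2116 were called lower and 1274 higher in titled deficient. The higher count was 712 with arrays centred on their medians. With centring on the genes tested 2854 were higher and 1401 lower, and the median difference of all genes moved to 0.09. Leaving out 1 array in turn gave 2178 to 3134 calls, 1441 to 1945 lower and 737 to 1189 higher, with the lowest without titled deficient 2, and 810 higher without titled deficient 1. The same-numbered arrays of the groups did not deviate together (correlations -0.17, 0.04, -0.35 and -0.28 for numbers 1 to 4). With the replicate block 1758 genes were called, 1197 lower and 561 higher, and no call of the 10 genes changed. The count of 5 lower among them was 4 to 5 without 1 array, and 3 with the level filter at the 50th percentile, which removes Cxcl2, Cxcl6 and Cxcr2 from the fit.

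Without 1 array, the log2 difference of Cxcl2 was -3.40 to -1.99, of Cxcl6 -2.92 to -1.07, of Cxcl12 0.23 to 0.42 and of Cxcr4 -0.51 to -0.16. Cxcl12 passed with array weights (0.41), centring on the genes tested (0.42) and quantile normalization of those genes (0.41). Without titled adequate 3 and 4, Cxcl3 (-0.49) no longer passed and Cxcr4 (0.06) turned. Without titled adequate 1 and 2, Cxcl6 (-4.32) and Cxcr4 (-0.77) passed, on the titled adequate arrays where both genes were highest. The cause was not tested. The median of the lymphocyte list changed sign under quantile normalization (-0.01), cyclic loess (-0.02) and median centring (-0.01), and those of the endothelial (0.01) and mesenchymal (0.13) lists did without titled adequate 3 and 4. The median of the other chemokine list was 0.01 and of the red cell list -0.40 after cyclic loess, and of the hypoxia list -0.43 without titled adequate 1 and 2. The exact permutation test, 2-sided and unadjusted, gave 0.0286, the smallest p that 4 against 4 arrays allow, for Cxcl1, Cxcl2, Cxcl3, Cxcr2 and Csf3r. Any gene whose groups do not overlap gets this value, so it restates the lack of overlap and adds no support. Among the genes tested, titled deficient lay wholly below titled adequate for 16.7% and wholly above for 11.3%. Signals near the antigenomic background limit Cxcr1 and, in titled deficient and on titled adequate 1 and 2, Cxcl6. The Cxcl6 difference without titled adequate 3 and 4 therefore compares such signals only.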
